A study of Mus musculus with 6 samples.

Results

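Inflammatory signalling in macrophages is limited by a small set of proteins that remove its ubiquitin signals, block its receptor complexes or destroy its mRNAs. The transcripts of 10 such genes were followed here: Tnfaip3, Tnip1, Tnip2 and Tnip3 of the A20 ubiquitin-editing group, Irak3, the Regnase genes Zc3h12a and Zc3h12c, and the tristetraprolin (TTP) family genes Zfp36, Zfp36l1 and Zfp36l2. The genes were chosen by name and function, with earlier results of these data known, and they are 10 of the 54532 genes measured. All 10 had a mean of at least 1 FPKM (fragments per kilobase of gene, scaled by library) over the libraries and were among the 9794 genes tested.

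Poly-A RNA was sequenced from peritoneal macrophages, collected after thioglycolate injection from wild-type male C57BL/6J mice aged 6 to 8 weeks and cultured overnight. Control cells received neither LPS nor ATP. In the Model group, LPS (500 ng/mL), a Toll-like receptor 4 agonist that primes the NLRP3 inflammasome, was present for 5.5 h before ATP (2 mM) was given for 0.5 h to trigger inflammasome assembly. The MUS group was treated identically except that muscone (50 µM), a macrocyclic ketone from musk, was added 0.5 h before ATP. Each group had 2 libraries, and nothing in the sources says that these came from separate animals or cultures, so p-values measure only the spread between these libraries.

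A20, encoded by Tnfaip3, edits ubiquitin chains on signalling adaptors and thereby limits NF-κB activation. The ABIN proteins encoded by Tnip1, Tnip2 and Tnip3 bind A20 and ubiquitin chains. IRAK-M, encoded by Irak3, is a kinase-dead relative of the IRAK kinases that restrains signalling from Toll-like receptors and is found mainly in monocytes and macrophages. The Regnase endonucleases cleave stem-loops in the 3′ UTRs of cytokine mRNAs, and TTP family proteins bind AU-rich elements there and recruit the deadenylation machinery. Several of these genes are themselves targets of NF-κB, and the mRNA of TTP carries AU-rich elements of its own.

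Each library held between 15526321 and 17135442 fragments on genes, which were recovered from FPKM and gene length. 1 fragment on a gene of 1 kb was worth 0.0437 to 0.0709 FPKM. The Control libraries stood apart from each other in LPS-responsive genes and correlated less across the tested genes (r = 0.924) than the libraries of Model (0.944) and MUS (0.981). Of 19 tested cytokine, chemokine and other mRNA targets of the TTP and Regnase proteins, 18 were higher in Control replicate 2 than in Control replicate 1, with a median difference of 2.63 on the log2 scale. Of all 9794 genes tested, 5213 were higher in Control replicate 2, with a median difference of 0.037. Values without either Control library are therefore given beside the results of the members in Model vs. Control. Model replicate 1 had 24906 genes with at least 1 fragment, against 17406 to 19200 in the other libraries. All 9 macrophage marker genes were tested, and their summed level, most of it Lyz2, was 11983 to 13765 FPKM in Control, 9591 to 14300 in Model and 11417 to 13261 in MUS. Single markers differed between groups in either direction, with Csf1r at 208 and 272 FPKM in Control and 83.4 to 105 FPKM in stimulated libraries, Cd68 at 1172 and 731 against 540.0 to 624, Cd14 at 125 and 406 against 1139.6 to 1748 and Fcgr1 at 18.3 and 7.87 against 134 to 161.

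Promoters of 3 members of the A20 group carried the κB consensus, the DNA motif bound by NF-κB, close to the start site and are printed to show it beside the levels of these genes. The windows are RefSeq sequences on GRCm38.p6, with 250 bases before and 50 after the annotated start, read in the direction of the gene. Capitals mark matches to the κB consensus on either strand, and overlapping matches are merged. The Tnfaip3 window (chr10:19015361-19015660, minus strand) held matches 125 to 116 and 12 to 3 bases before the start. In the Tnip1 window (chr11:54962891-54963190, minus strand), overlapping matches formed one run 58 to 47 bases before the start. The Tnip3 window (chr6:65590148-65590447, plus strand) held a match 54 to 45 bases before the start. This window lies inside the locus counted for Tnip3, which begins upstream at chr6:65525313, where no window was read. The Tnfaip3 window also lies almost wholly inside its counted locus, whose upstream end is chr10:19015657, and both its matches fall within that locus.
Tnfaip3: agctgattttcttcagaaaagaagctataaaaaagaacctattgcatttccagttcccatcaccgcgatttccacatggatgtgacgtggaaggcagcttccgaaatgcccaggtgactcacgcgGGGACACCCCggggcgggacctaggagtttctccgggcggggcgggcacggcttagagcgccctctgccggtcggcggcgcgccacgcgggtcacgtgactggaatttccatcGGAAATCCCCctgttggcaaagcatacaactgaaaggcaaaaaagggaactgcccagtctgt
Tnip1: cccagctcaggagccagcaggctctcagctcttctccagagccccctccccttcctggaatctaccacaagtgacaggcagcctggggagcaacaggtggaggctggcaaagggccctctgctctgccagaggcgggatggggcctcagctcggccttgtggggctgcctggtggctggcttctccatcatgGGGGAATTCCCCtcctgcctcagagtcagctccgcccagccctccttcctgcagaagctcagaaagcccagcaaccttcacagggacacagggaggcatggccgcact
Tnip3: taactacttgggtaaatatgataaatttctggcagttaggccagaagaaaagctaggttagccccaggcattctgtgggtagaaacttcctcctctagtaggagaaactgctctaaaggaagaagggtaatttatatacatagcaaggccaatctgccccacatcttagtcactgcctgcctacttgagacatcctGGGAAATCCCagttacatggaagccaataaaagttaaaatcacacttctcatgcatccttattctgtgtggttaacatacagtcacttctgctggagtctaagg

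RefSeq gave 12 promoters for 9 of the 10 genes. A κB match was present in 4 of these 12 promoters, the fourth being that of Zc3h12c (chr9:52168357-52168656, minus strand), where it lay 236 to 227 bases before the start within gcggcatgggGGAGCGTCCCgctcggcccg. Over all 32851 promoters of the same length, 8.46% held a match, and the share was 10.4% for genes tested and 13.7% for genes upregulated in Model vs. Control. No match was found in the windows of Tnip2, Irak3, Zc3h12a, Zfp36 and Zfp36l1, which says only that these letters are absent there. A match is a description of the sequence and not evidence of binding.

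Elements of the kind the TTP family binds were looked for in the members' own transcripts, in the annotated transcript with the longest 3′ UTR (GENCODE M21). The core TATTTAT was present in 6 of 10 members and the nonamer TTATTTATT, which contains the core, in 4, namely Tnfaip3 and the TTP family genes. Of 8599 tested genes with a 3′ UTR, 31.0% held the core and 8.31% the nonamer. Their median 3′ UTR was shorter, at 1190 bases against 1444 in the members. All 3 TTP family transcripts held 1 nonamer each, and these sites are printed with the nonamer in capitals, read in the direction of the transcript (GRCm38, minus strand, 3′ UTR). The Zfp36 site (chr7:28376951-28376979) lay 589 bases after the stop codon, the Zfp36l1 site (chr12:80108167-80108195) 1404 bases after it and the Zfp36l2 site (chr17:84184914-84184942) 821 bases.
Zfp36: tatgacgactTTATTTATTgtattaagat
Zfp36l1: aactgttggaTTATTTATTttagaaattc
Zfp36l2: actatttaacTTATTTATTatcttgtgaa

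The short 3′ UTR of Zfp36 (774 bases) held 3 cores, or 3.88 per kb, against 0.295 per kb over all tested genes. Among 1022 tested genes with a 3′ UTR of 80% to 120% of its length, 20.5% held any core and 4.79% the nonamer. Zfp36l1 and Zfp36l2 also held 3 cores each, at 1.63 and 1.65 per kb, and Tnfaip3 held 2, at 1.10 per kb. Zc3h12c held 2 cores in 4062 bases and Tnip3 held 1 in 2932 bases. The 3′ UTRs of Tnip1, Tnip2, Irak3 and Zc3h12a held no core.

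Model vs. Control addressed how LPS and ATP changed these transcripts. A gene counted as a DEG when its limma adjusted p was 0.05 or less and its log2 fold change went beyond 1 either way. Of the 10 members, 6 were upregulated in Model (Tnfaip3, Tnip1, Tnip2, Tnip3, Zc3h12a and Zfp36), as were 9.5% of all genes tested. Zfp36l2 was downregulated, as were 5.56% of all genes tested. Over all genes 930 rose and 545 fell, and 647 and 1633 did with libraries rescaled to their fragment totals. Irak3, Zc3h12c and Zfp36l1 did not pass the test. The median log2 fold change was 1.96 over the 10 members and 0.04 over all genes tested. Both Model libraries lay above both Control libraries for 8 members and below them for Zfp36l2, a separation seen in 32.6% of all genes for higher and 28.5% for lower levels. The upregulated members included Tnfaip3, Tnip1 and Tnip3, whose promoters held the κB matches printed, as well as Tnip2, Zc3h12a and Zfp36, whose windows held none. Zc3h12c, which also held a match, was not called, and the other RefSeq promoter of Tnfaip3 held none. The TTP family members, which each hold a nonamer in the 3′ UTR, went different ways, with Zfp36 upregulated, Zfp36l2 downregulated and Zfp36l1 not called. In these bulk libraries, fewer cells of a type and less RNA per cell cannot be told apart.

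**Figure D1:**
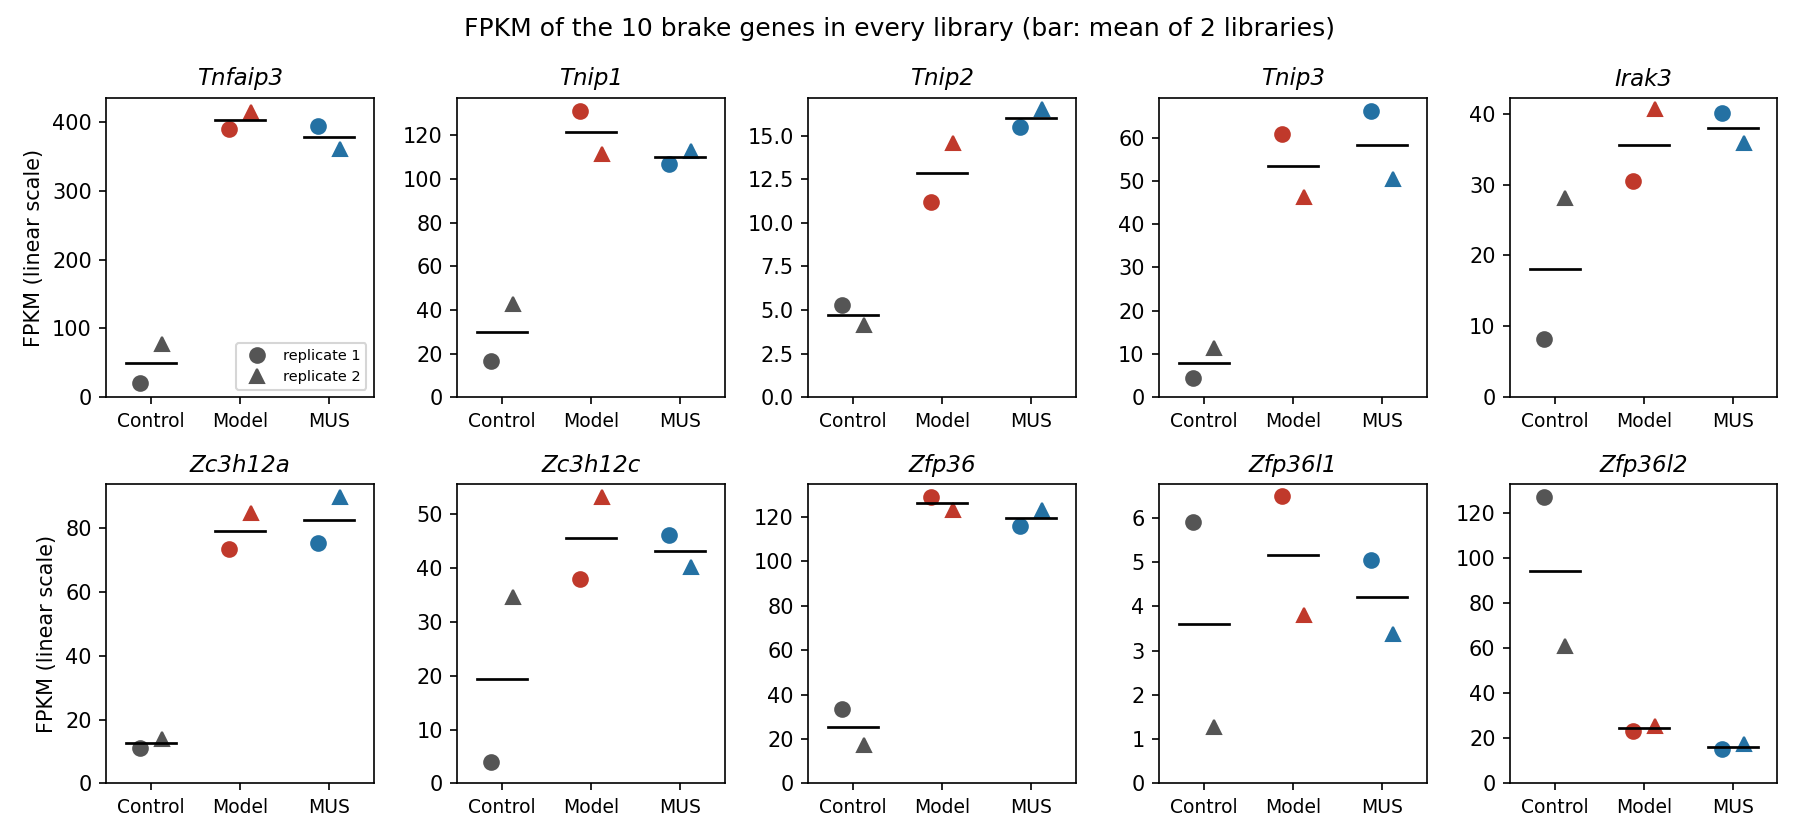
FPKM on a linear scale of each of the 10 genes in the 6 libraries, by group, with circles for replicate 1, triangles for replicate 2 and a bar at the mean of the 2 libraries. Tnfaip3 reached 389.6 and 415 FPKM in Model, whereas Zfp36l2 fell from 127 and 61.0 FPKM in Control to 23.3 and 25.5 in Model.

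Tnfaip3 (ENSMUSG00000019850, chr10:19000910-19015657, minus strand) had the highest mean level of the 10 genes and ranked 145 of all genes by mean FPKM. Its level was 20.8 and 77.2 FPKM in the Control libraries, 389.6 and 415 FPKM in Model and 395 and 361 FPKM in MUS. All stimulated libraries lay far above both Control libraries, while Control replicate 2 was 3.71 times as high as Control replicate 1. The mean was 49.0 ± 39.9 FPKM in Control (SD, n = 2 in each group) and 403 ± 18.2 in Model, a ratio of 8.21. On the log2(FPKM + 1) scale the increase was 3.29 (SE 0.58, limma, adjusted p = 0.0120). The labels give the replicate number as the batch, and the increase was 4.16 in batch 1 and 2.41 in batch 2. It was 2.37 without Control replicate 1 and 4.21 without Control replicate 2, a DEG both times, and the call was lost in 3 of 16 alternatives, among them those without either Model library (limma, adjusted p = 0.0653 and 0.0523).

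Tnip1, the gene of ABIN-1 (ENSMUSG00000020400, chr11:54910785-54962917, minus strand), followed with 16.5 and 42.9 FPKM in the Control libraries, 131 and 111 FPKM in Model and 107 and 113 FPKM in MUS. Every stimulated library exceeded both Control libraries, and the mean rose from 29.7 ± 18.7 to 121 ± 14.2 FPKM in Model, or 4.09 times. The fitted log2 increase was 2.14 (SE 0.45, limma, adjusted p = 0.0219). Within batches it was 2.92 in batch 1 and 1.35 in batch 2, and it was a DEG without Control replicate 1 (1.47) and without Control replicate 2 (2.80). The call was lost in 7 of 16 alternatives, among them a fit of only the groups compared, quantile normalization and those without any 1 of the Model or MUS libraries (limma, adjusted p = 0.0604 to 0.101 in these). The non-stranded library protocol cannot separate Tnip1 from the overlapping Gm12230, listed at 0 to 8.54 FPKM.

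Tnip2, which encodes ABIN-2, a binding partner of the kinase TPL2 as well as of A20 (ENSMUSG00000059866, chr5:34496087-34513991, minus strand), was the least abundant and least changed gene of the group. It gave 5.31 and 4.15 FPKM in the Control libraries, 11.2 and 14.5 FPKM in Model and 15.5 and 16.5 FPKM in MUS, with 326 and 255 fragments in Control, 423 and 605 fragments in Model and 629 and 721 in MUS. The groups did not overlap, and both Control libraries lay close together. The mean rose from 4.73 ± 0.820 to 12.9 ± 2.39 FPKM, or 2.72 times, with a log2 increase of 1.27 (SE 0.24, limma, adjusted p = 0.0157). This increase was 0.95 in batch 1 and 1.59 in batch 2, and it was 1.42 and 1.12 without Control replicates 1 and 2. When libraries were rescaled to their total of fragments on genes, the increase was 0.80 (limma, adjusted p = 0.0638) and Tnip2 was no DEG. The call was lost in 6 of 16 alternatives, among them voom and those without Model replicate 2 or either MUS library (limma, adjusted p = 0.0501 to 0.0624 in these).

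Tnip3, the gene of ABIN-3 (ENSMUSG00000044162, chr6:65525313-65634040, plus strand), gave 4.54 and 11.4 FPKM in the Control libraries, 60.8 and 46.3 FPKM in Model and 66.1 and 50.5 FPKM in MUS. Its lowest stimulated library, at 46.3 FPKM, was well above the highest Control library. The mean rose from 7.98 ± 4.85 to 53.6 ± 10.3 FPKM, or 6.71 times, with a log2 increase of 2.70 (SE 0.42, limma, adjusted p = 0.00820). Within batches the increase was 3.48 in batch 1 and 1.93 in batch 2, and it was 2.12 and 3.29 without Control replicates 1 and 2, a DEG both times. The call was lost without Model replicate 1 (limma, adjusted p = 0.0555) and with no filter on low values (0.0747).

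The ratio of Tnfaip3 to the summed FPKM of the 3 Tnip genes was 0.790 and 1.32 in the Control libraries, 1.92 and 2.41 in those of Model and 2.09 and 2.01 in those of MUS. In every stimulated library it was higher than in either Control library. The Tnip sum itself was 26.4 and 58.5 FPKM in Control and 172 to 203 FPKM in the stimulated libraries.

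Irak3 (ENSMUSG00000020227, chr10:120141648-120202130, minus strand) gave 8.14 and 28.2 FPKM in the Control libraries, 30.5 and 40.6 FPKM in Model and 40.0 and 35.9 FPKM in MUS. The lowest Model library was just above Control replicate 2, so the groups did not overlap, but Control replicate 2 was 3.46 times as high as Control replicate 1. The mean was 18.2 ± 14.2 FPKM in Control and 35.5 ± 7.14 in Model, a ratio of 1.96. The fitted log2 difference of 1.15 (-0.078 to 2.37, 95% interval) did not pass the test (limma, adjusted p = 0.170). It was 1.79 in batch 1 and 0.51 in batch 2. Without Control replicate 2 the difference was 1.99 and Irak3 was a DEG (limma, adjusted p = 0.00751), whereas without Control replicate 1 it was 0.31 (limma, adjusted p = 0.603). The end of the locus overlaps Tmbim4 on the other strand, at 19.9 to 79.8 FPKM, and reads of both genes cannot be told apart there.

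Zc3h12a encodes Regnase-1, which cleaves mRNAs such as those of Il6 and Il12b (ENSMUSG00000042677, chr4:125118423-125127840, minus strand). It gave 11.2 and 13.8 FPKM in the Control libraries, 73.4 and 84.7 FPKM in Model and 75.3 and 89.8 FPKM in MUS. The Control libraries lay within 1.81 FPKM (SD) of their mean of 12.5, and no stimulated library was below 73.4. The mean in Model was 79.1 ± 8.03 FPKM, or 6.31 times that in Control, with a log2 increase of 2.57 (SE 0.28, limma, adjusted p = 0.00306). The increase was 2.60 in batch 1 and 2.53 in batch 2, and it was 2.43 and 2.71 without Control replicates 1 and 2. Of the 10 genes, only Zc3h12a was a DEG under all 16 alternatives tried, in Model vs. Control as well as in MUS vs. Control, with log2 increases of 2.05 to 2.71 in the first.

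Zc3h12c, the gene of a relative of Regnase-1 (ENSMUSG00000035164, chr9:52111344-52168572, minus strand), gave 3.9997 and 34.7 FPKM in the Control libraries, 37.9 and 53.2 FPKM in Model and 46.1 and 40.3 FPKM in MUS. Control replicate 2 was 8.68 times as high as Control replicate 1 and came close to the lowest Model library. Only 0.562% of the tested genes differed more between the Control libraries. The fitted log2 difference of 1.78 (-0.12 to 3.68, 95% interval) did not pass the test (limma, adjusted p = 0.170), and it was 2.96 in batch 1 and 0.60 in batch 2. Zc3h12c was a DEG without Control replicate 2, at 3.20 (limma, adjusted p = 0.00187), and not without Control replicate 1, at 0.36 (limma, adjusted p = 0.567).

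Zfp36, the gene of TTP itself (ENSMUSG00000044786, chr7:28376784-28380253, minus strand), gave 33.3 and 17.1 FPKM in the Control libraries, 129 and 123 FPKM in Model and 116 and 123 FPKM in MUS. Unlike the A20 group genes Tnfaip3, Tnip1 and Tnip3, it was lower in Control replicate 2 than in Control replicate 1, and all stimulated libraries were above both. The mean rose from 25.2 ± 11.5 to 126 ± 4.21 FPKM, or 5.00 times, with a log2 increase of 2.35 (SE 0.37, limma, adjusted p = 0.00849). Within batches the increase was 1.92 in batch 1 and 2.78 in batch 2, and it was 2.81 and 1.89 without Control replicates 1 and 2. The call was lost in 1 of 16 alternatives, that with no filter on low values (limma, adjusted p = 0.0664). The gene length used, 3470 bases, equals the whole span of the locus, introns included. Its FPKM is therefore not on the same footing as that of genes counted over exons only. The length cancels in ratios between libraries, but any part of intronic reads in these ratios was not tested.

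Zfp36l1, which encodes the TTP relative BRF1 (ENSMUSG00000021127, chr12:80107754-80113013, minus strand), was the least abundant member, with 5.91 and 1.27 FPKM in the Control libraries, 6.49 and 3.80 FPKM in Model and 5.05 and 3.38 FPKM in MUS. These values rested on 87 to 404 fragments a library, and the groups overlapped. The log2 difference between Model and Control was 0.60 (-0.61 to 1.81, 95% interval; limma, adjusted p = 0.444). It was 0.12 in batch 1 and 1.08 in batch 2. Without Control replicate 1 it was 1.40, and its sign changed to -0.20 without Control replicate 2.

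Zfp36l2, which encodes the TTP relative BRF2 (ENSMUSG00000045817, chr17:84183931-84187947, minus strand), was the TTP family gene with the highest level in Control and the only member that fell. It gave 127 and 61.0 FPKM in the Control libraries, 23.3 and 25.5 FPKM in Model and 15.1 and 17.4 FPKM in MUS, with 10262 and 4925 fragments in Control, 1161 and 1396 fragments in Model and 804 and 995 in MUS. Every stimulated library was below the lower Control library. The mean fell from 94.1 ± 46.8 to 24.4 ± 1.57 FPKM, so that Control was 3.85 times Model, with a log2 change of -1.81 (SE 0.38, limma, adjusted p = 0.0211). The change was -2.40 in batch 1 and -1.22 in batch 2, and it was -1.29 and -2.34 without Control replicates 1 and 2, a DEG both times. The call was lost in 6 of 16 alternatives, which were a fit of only the groups compared, no filter on low values and those without any 1 of the Model or MUS libraries (limma, adjusted p = 0.0607 to 0.112). With libraries rescaled to their fragment totals, Zfp36l2 changed by -2.35.

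The makeup of the TTP family is given here as a description of each library. The length used for Zfp36 was the whole span of its locus, introns included, unlike for Zfp36l1 and Zfp36l2. Shares and ratios therefore compare libraries and do not give the relative amounts of these transcripts. Zfp36 made up 20.04% and 21.6% of the summed FPKM of the 3 genes in the Control libraries, 81.3% and 80.8% in those of Model and 85.2% and 85.6% in those of MUS. The share of Zfp36l2 was 76.4% and 76.8% in the Control libraries, 14.7% and 16.7% in those of Model and 11.1% and 12.04% in those of MUS. Zfp36l1 stayed between 1.60% and 4.09%. The shares were close within a group even though the summed level differed between the Control libraries, at 166 and 79.4 FPKM, and lay between 136 and 159 FPKM in the stimulated libraries. The ratio of Zfp36 to Zfp36l2, which does not depend on the scaling of a library, was 0.262 and 0.281 in the Control libraries, 5.54 and 4.83 in those of Model and 7.69 and 7.11 in those of MUS.

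**Figure D2:**
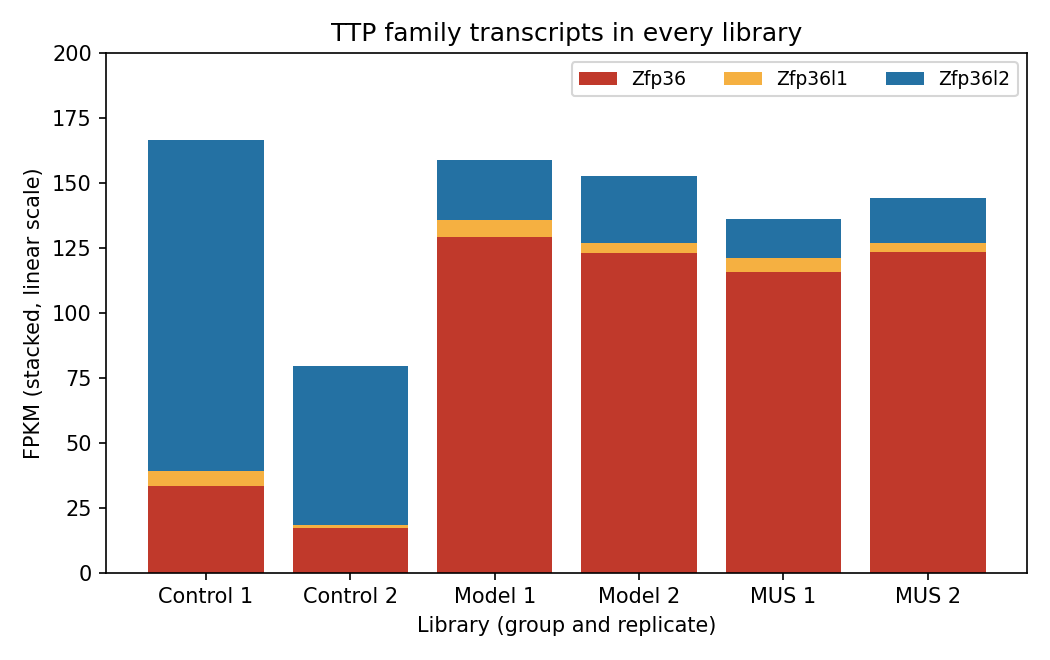
Stacked bars of the FPKM (linear scale) of Zfp36, Zfp36l1 and Zfp36l2 in each of the 6 libraries. Zfp36l2 made up most of the bar in both Control libraries (76.4% and 76.8%) and Zfp36 most of it in the 4 stimulated libraries (80.8% to 85.6%). The FPKM of Zfp36 is scaled by its whole locus, introns included, so the bars compare libraries and not transcript amounts.

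The Control libraries differed from each other more than the other groups in 9 of the 10 members. Control replicate 2 was higher by 1.84 (Tnfaip3), 1.33 (Tnip1), 1.16 (Tnip3), 1.67 (Irak3) and 2.84 (Zc3h12c) on the log2 scale. It was lower for Zfp36, Zfp36l1 and Zfp36l2, with differences of -0.92, -1.60 and -1.05. The median absolute difference over all tested genes was 0.293 in Control, 0.351 in Model and 0.203 in MUS. Zc3h12a and Tnip2 differed by 0.27 and -0.29, about as much as the median gene. In Model vs. Control, the log2 difference without Control replicate 2 was 1.99 for Irak3 and 3.20 for Zc3h12c. Without Control replicate 1 it was 0.31 and 0.36. Without a Model or MUS library, this comparison called fewer members and fewer of all genes tested. Without Control replicate 2 it called more of both. Without Control replicate 1 it called the same members and fewer of all genes tested. Why the calls changed was not tested.

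**Figure D3:**
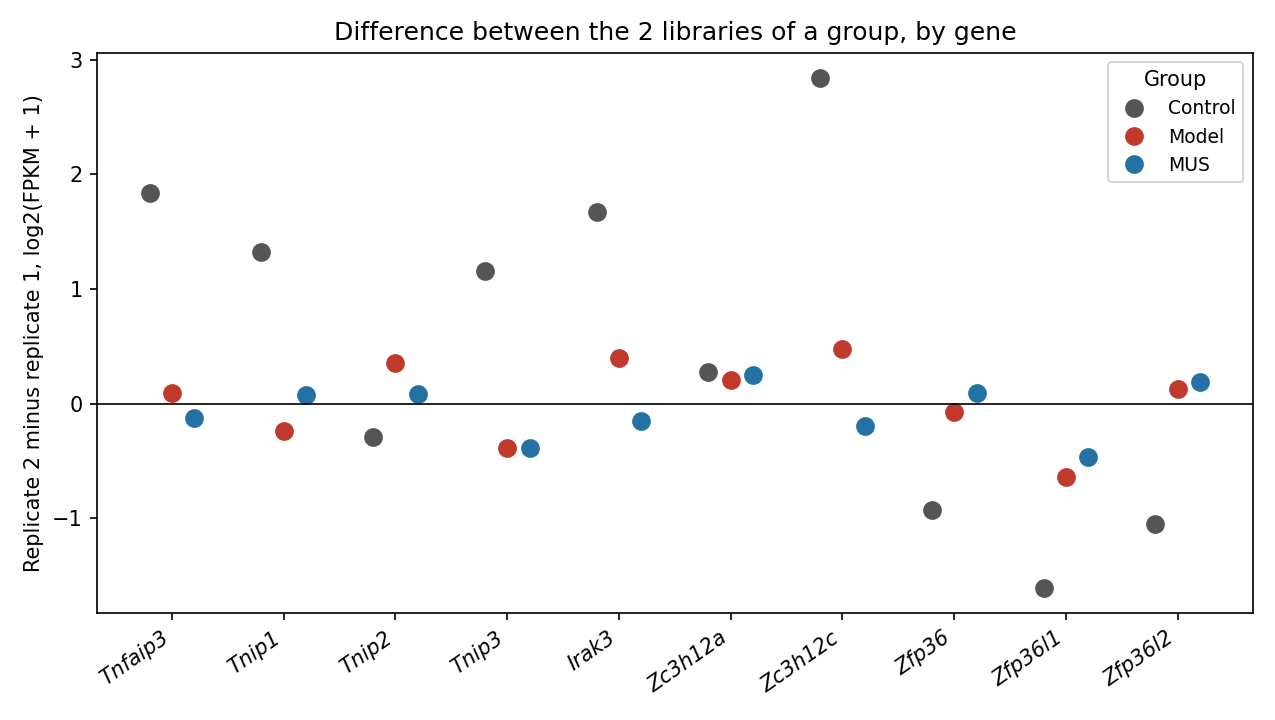
Difference between replicate 2 and replicate 1 in log2(FPKM + 1) for each of the 10 genes, coloured by group, with a line at 0. The Control difference was 2.84 for Zc3h12c and -1.60 for Zfp36l1, while Model and MUS points lie between -0.64 (Zfp36l1 in Model) and 0.48 (Zc3h12c in Model).

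Rescaling the libraries moved all genes at once. With the per-million scale deposited, the median log2 difference over all genes was 0.04 in Model vs. Control, whereas with libraries rescaled to their fragment totals it was -0.42. Relative to that shift the members changed by 3.17 (Tnfaip3), 2.02 (Tnip1), 1.22 (Tnip2), 2.63 (Tnip3), 2.47 (Zc3h12a), 2.23 (Zfp36) and -1.94 (Zfp36l2). Irak3, Zc3h12c and Zfp36l1 were 1.05, 1.70 and 0.59 above it.

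**Figure D4:**
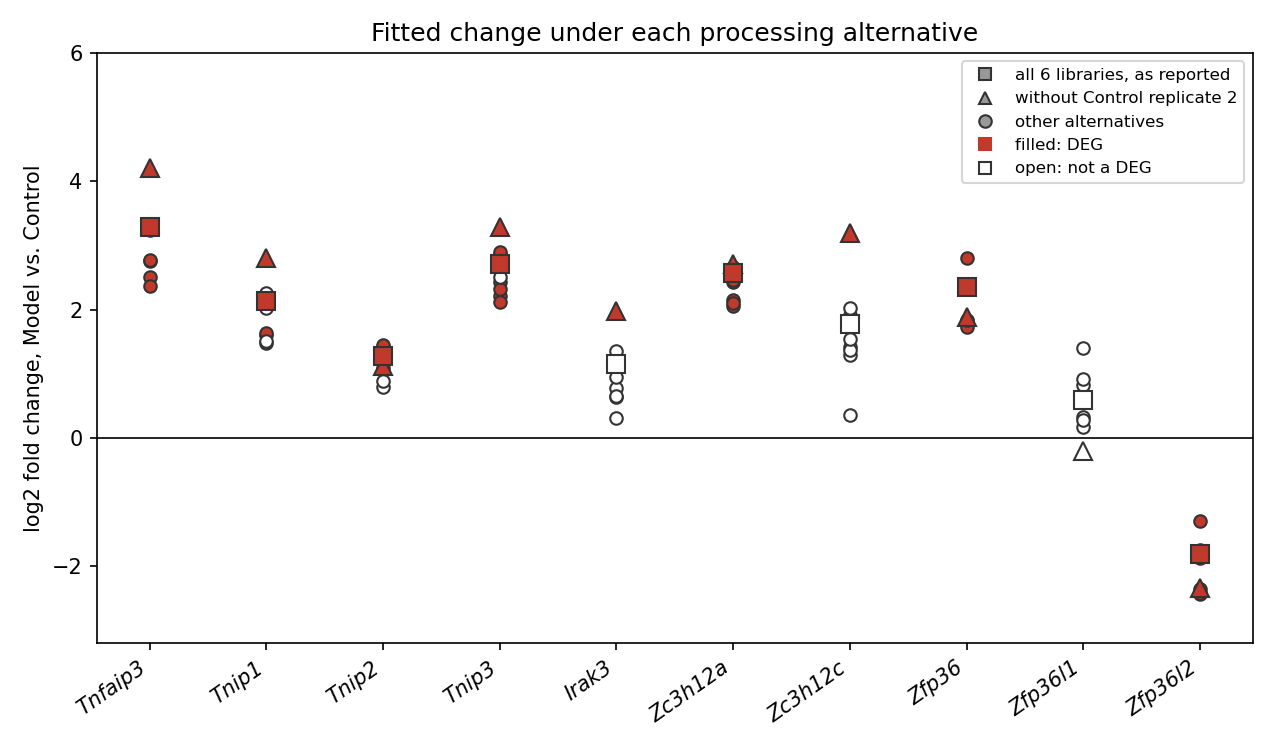
Fitted log2 fold change in Model vs. Control of each gene, with squares for the values reported, triangles for the fit without Control replicate 2 and circles for the other alternatives, filled where the gene was a DEG. Zc3h12a is filled throughout, between 2.05 and 2.71, while Irak3 and Zc3h12c are filled only without Control replicate 2.

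MUS vs. Model addressed what muscone added to LPS and ATP. None of the 10 members was a DEG, as was 0% of all genes tested in limma, and 0 members had an unadjusted p under 0.05, against 8.42% of all genes. The number of DEGs over all genes was 4 under a replicate block, 7 with only these groups in the fit, 1 with a pseudocount of 0.1 and 0 with voom on the recovered fragments, and no member was among them. The fitted differences of the members ranged from -0.56 (Zfp36l2) to 0.31 (Tnip2), with 4 above and 6 below 0. Their median was -0.07, and that of all genes was 0.01. With 2 libraries against 2, the exact permutation test for any one gene has a smallest possible p of 0.333.

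Levels of Tnfaip3 were 403 ± 18.2 FPKM in Model and 378 ± 23.7 in MUS (SD, n = 2 each), with a log2 difference of -0.091 and a 95% interval of -1.45 to 1.27. This interval reached past 1 on the log2 scale in either direction. For Tnip1 the difference was -0.14 (-1.20 to 0.93) and for Tnip3 0.12 (-0.87 to 1.11), and the libraries of Model and MUS overlapped for both. Irak3 differed by 0.11 (-1.12 to 1.33) and Zc3h12c, the least precise, by -0.059 (-1.96 to 1.84). The tightest intervals belonged to Tnip2 and Zc3h12a, and the difference for Zc3h12a was 0.059 (-0.60 to 0.72). Zfp36 differed by -0.077 (-0.94 to 0.79) and Zfp36l1 by -0.22 (-1.43 to 0.99).

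Only Tnip2 and Zfp36l2 had libraries that did not overlap between Model and MUS. Tnip2 was higher in MUS, at 15.5 and 16.5 FPKM against 11.2 and 14.5, and such a separation was seen in 21.2% of all genes. The log2 difference of 0.31 (-0.27 to 0.88) did not pass the test (limma, adjusted p = 0.790), and it was 0.44 in batch 1 and 0.17 in batch 2. Zfp36l2 was lower in MUS, at 15.1 and 17.4 FPKM against 23.3 and 25.5, a separation seen in 21% of all genes. Its difference of -0.56 (-1.45 to 0.33) was about as large in batch 1 (-0.60) as in batch 2 (-0.53) but did not pass the test (limma, adjusted p = 0.749). Of the other members, Zc3h12a and Tnip3 were above 0 and Zfp36l1 below 0 in both batches, and the other 5 had opposite signs in the batches.

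**Figure D5:**
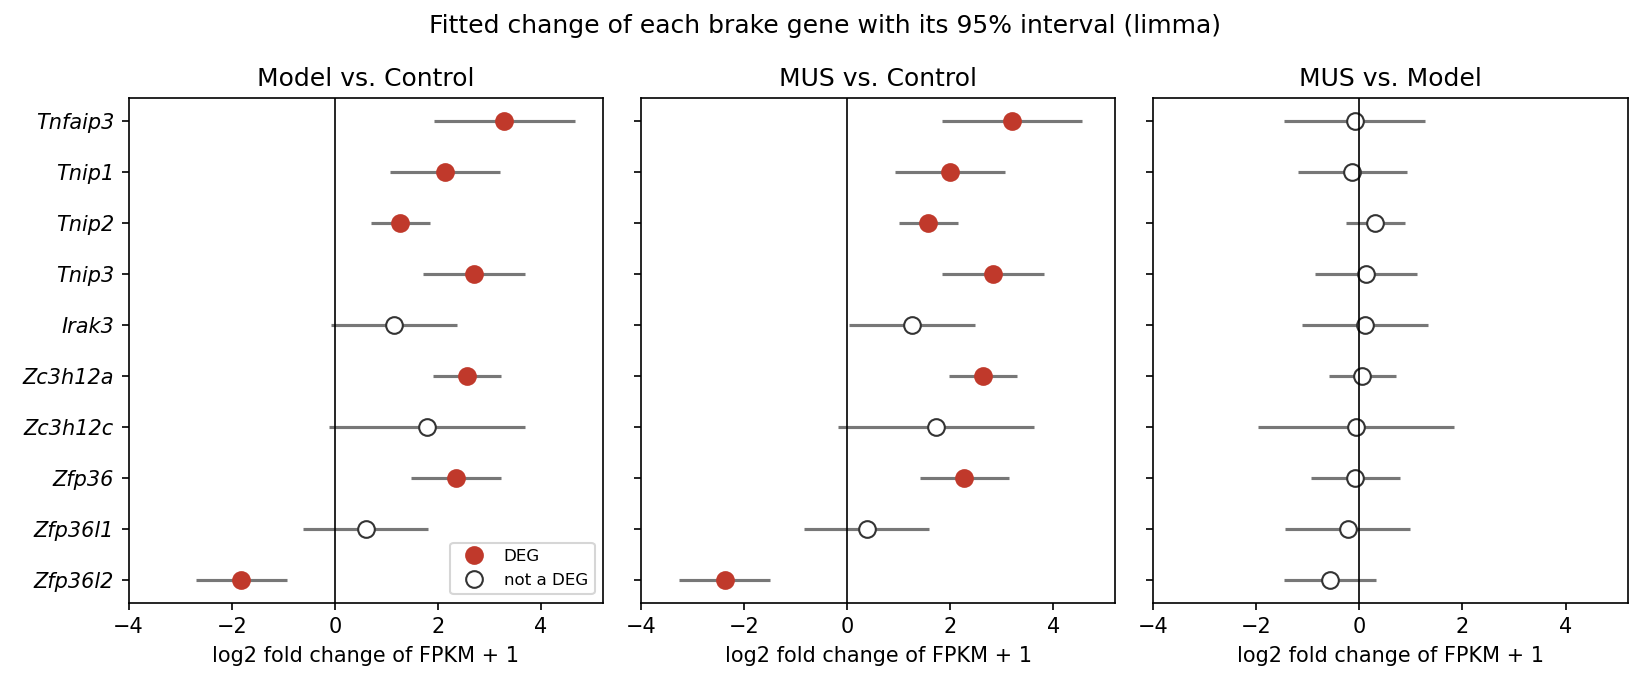
Fitted log2 fold change of FPKM + 1 of each gene in the 3 comparisons, with its 95% interval from limma, filled where the gene was a DEG. In Model vs. Control and MUS vs. Control 6 genes lie above 0 and Zfp36l2 below it as DEGs, whereas all 10 intervals include 0 in MUS vs. Model.

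MUS vs. Control, which shares its Control libraries with Model vs. Control, showed the levels under LPS, ATP and muscone together against untreated cells. Tnfaip3, Tnip1, Tnip2, Tnip3, Zc3h12a and Zfp36 were upregulated, as were 11.3% of all genes tested, and Zfp36l2 was downregulated, as were 8.91%. Over all genes 1107 rose and 873 fell, and 743 and 2044 did with fragment-total scaling, where the median difference was -0.41. Both MUS libraries lay above both Control libraries for 8 members, against 39.6% of all genes, and below them for 1, against 33.8%. The median log2 fold change was 1.86 over the members and 0.04 over all genes. Tnfaip3 rose by 3.20 (limma, adjusted p = 0.0102), Tnip3 by 2.83 (0.00567), Zc3h12a by 2.63 (0.00227) and Zfp36 by 2.27 (0.00742). Tnip1 rose by 2.00 (limma, adjusted p = 0.0211) and Tnip2 by 1.58 (0.00643).

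Zfp36l2 was 5.80 times as high in Control as in MUS, a log2 change of -2.38 (SE 0.38, limma, adjusted p = 0.00706), with -3.00 in batch 1 and -1.76 in batch 2. Irak3 (1.25, limma, adjusted p = 0.120), Zc3h12c (1.72, adjusted p = 0.158) and Zfp36l1 (0.38, adjusted p = 0.615) did not pass the test. Within batches, the increase in MUS was 4.18 in batch 1 and 2.21 in batch 2 for Tnfaip3, 2.63 in batch 1 and 1.38 in batch 2 for Tnip1 and 3.60 in batch 1 and 2.05 in batch 2 for Tnip3. It was 1.39 in batch 1 and 1.77 in batch 2 for Tnip2, 2.64 in batch 1 and 2.62 in batch 2 for Zc3h12a and 1.77 in batch 1 and 2.78 in batch 2 for Zfp36. For Irak3 it was 2.17 in batch 1 and 0.34 in batch 2, for Zc3h12c 3.24 in batch 1 and 0.21 in batch 2 and for Zfp36l1 -0.19 in batch 1 and 0.95 in batch 2. Without Control replicate 2, Irak3 (2.09, limma, adjusted p = 0.00578) and Zc3h12c (3.14, adjusted p = 0.00186) were also DEGs. Without MUS replicate 1 only Zc3h12a was called in MUS vs. Control, and without MUS replicate 2 only Tnip3 and Zc3h12a, while the other 6 and 5 kept their direction with limma adjusted p of 0.0505 to 0.143.

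Other genes of the same pathways were read from 4 lists chosen by function, also with earlier results of these data known. The first held genes of ubiquitin editing and linear ubiquitin chains, along with relatives such as Usp18 and Malt1 that do not edit ubiquitin. Of its 23 tested genes, 5 were upregulated in Model vs. Control and 0 downregulated, against 9.5% and 5.56% of all genes tested. The median log2 difference was 0.55. Fragment-total scaling gave 4 higher and 0 lower, with a median of 0.093 against -0.42 for all genes. Usp18, the ISG15 protease, rose by 5.89 (SE 0.54, limma, adjusted p = 0.00181), from 1.76 and 7.74 FPKM in Control to 351 and 241 in Model. Peli1, a ubiquitin ligase of Toll-like receptor signalling, rose by 2.53 (adjusted p = 0.0222) and the deubiquitinase gene Usp25 by 2.05 (adjusted p = 0.0160). The count was 10 without Control replicate 2, 3 without Control replicate 1, Model replicate 1 or either MUS library, and 2 without Model replicate 2. In MUS vs. Control, where 11.3% of all genes rose, 8 genes of this list rose, led by Usp18 (5.65), Malt1 (3.02, limma, adjusted p = 0.0386), a paracaspase gene, and Peli1 (2.54). Fragment-total scaling gave 4 higher and 1 lower. The list median was 0.53 in MUS vs. Control, and 0.46 and 0.66 without MUS replicates 1 and 2. Without Control replicate 1 or either MUS library, fewer genes of the list and fewer of all genes tested were called. Without Control replicate 2 more of both were called.

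Most genes of the deadenylation, decapping and decay machinery, which acts downstream of the TTP family, did not pass the test. Of 26 tested, 3 rose in Model vs. Control and 0 fell, a share near the 9.5% of all genes that rose, with a median difference of 0.099. Fragment-total scaling gave 2 higher and 1 lower with a median of -0.38, near the -0.42 of all genes, and voom gave 2 higher and 4 lower. Dcp2, the catalytic decapping subunit, rose by 2.37 (SE 0.35, limma, adjusted p = 0.00697), from 4.30 and 9.12 FPKM in Control to 33.9 and 40.2 in Model. Btg2, a cofactor of the deadenylase complex, rose by 1.66 (adjusted p = 0.00815) and Xrn1, the main cytoplasmic 5′ exonuclease, by 1.26 (adjusted p = 0.0266). In MUS vs. Control 4 rose, against 11.3% of all genes, led by Dcp2 (2.54), Btg2 (1.57) and Btg1 (1.503, limma, adjusted p = 0.0267). Fragment-total scaling gave 3 higher and 2 lower. Fewer genes of this list, and fewer of all genes tested, were called without Control replicate 1 or either MUS library. The list median in MUS vs. Control was 0.23, and 0.24 and 0.16 without MUS replicates 1 and 2.

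Of 16 other tested RNA-binding regulators of inflammatory mRNA, 2 rose in Model vs. Control and 0 fell, a share near the 9.5% of all genes that rose, and voom gave 1 higher and 2 lower. Arid5a, whose protein stabilises the Il6 mRNA, rose by 1.43 (SE 0.20, limma, adjusted p = 0.00564), from 0.652 and 0.645 FPKM to 3.44 and 3.44. Elavl1, the gene of the AU-rich element binding protein HuR, rose by 1.06 (adjusted p = 0.0404). In MUS vs. Control, 1 gene of this list rose, Arid5a by 1.54 (limma, adjusted p = 0.00368). In Model vs. Control the count of upregulated genes was 4 without Control replicate 2 and 1 without any other single library. In MUS vs. Control more genes of this list were called without Control replicate 2, in either direction, and fewer without MUS replicate 1. The list median there was 0.51, and 0.47 and 0.54 without MUS replicates 1 and 2.

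The listed cytokine, chemokine and other mRNA targets of the TTP family and Regnase proteins were mostly far higher in stimulated cells. This list does not stand for all mRNAs that these proteins act on. Of 19 tested, 17 rose in Model vs. Control and in MUS vs. Control and 0 fell, with medians of 5.06 and 4.36 on the log2 scale. Of all genes tested, 9.5% and 11.3% rose and 5.56% and 8.91% fell in these comparisons, with a median of 0.04 in each. Il1b rose by 9.67 (limma, adjusted p = 0.00488), from 0.550 and 34.2 FPKM in Control to 7646 and 4750.0 in Model and 5832 and 5003 in MUS. Il6 rose by 8.82 (adjusted p = 0.000504) and Ptgs2, the gene of COX-2, by 8.13 (adjusted p = 0.00631) in Model vs. Control. In MUS vs. Control the log2 increases of Il1b, Il6 and Ptgs2 were 9.51, 8.62 and 7.98. In Model vs. Control the list median was 6.69 without Control replicate 2 and 3.46 without Control replicate 1. It was 4.70 without Model replicate 1 and 5.42 without Model replicate 2. Fewer genes of the list, and fewer of all genes tested, were called without a Model or MUS library. In MUS vs. Control this median was 4.28 without MUS replicate 1 and 4.48 without MUS replicate 2. Fewer genes of the list and fewer of all genes tested were called there too. Between MUS and Model no gene of the 4 lists was a DEG or had an unadjusted p under 0.05 in limma, and the list medians were 0.064, 0.061, 0.10 and -0.20 in the order given. The last of these rested on single libraries, as it was 0.0086 without Model replicate 1, -0.58 without Model replicate 2, -0.33 without MUS replicate 1 and -0.047 without MUS replicate 2.

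Genes whose levels followed a member most closely over the 6 libraries were found by Pearson's r of log2(FPKM + 1), which here describes mainly the differences between groups and between the Control libraries. Tnfaip3 was followed most closely by Mir155hg, Ptgs2 and Ifih1, each with r of at least 0.998. Mir155hg, the host gene of a microRNA, was at 0.153 and 14.9 FPKM in Control and at 245 to 284 FPKM in the stimulated libraries. Irak3 was closest to Mcoln2, Slc7a11 and Slc4a7 (r = 0.998 for each). For Zc3h12a the genes with the highest r included Gm6904 and Nos2, with r of at least 0.998. For Zfp36 they included Fcgr1 (0.999) and Aldh1a2 (0.996), and Fcgr1 too was lower in Control replicate 2, at 7.87 FPKM against 18.3. Among the members, Tnfaip3 and Tnip1 (0.994) and Irak3 and Zc3h12c (0.994) were most alike, and Tnip3 and Zfp36l2 were most opposed (-0.981). All these values share the same 6 libraries.

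Markers of other peritoneal cells were low. None of 7 T and innate lymphocyte, 5 B cell, 5 mast cell and 4 mesothelial genes reached a mean of 1 FPKM, and their summed levels were at most 0.723, 1.87, 1.01 and 1.22 FPKM in any library. Of 7 neutrophil genes, 2 were tested, and S100a9, Ly6g and Retnlg were listed at 0 in all libraries. Their sum was 20.3 and 34.4 FPKM in the Control libraries, 114 and 61.3 in those of Model and 69.3 and 55.2 in those of MUS, most of it S100a8, which macrophages can also express. The 4 eosinophil genes summed to 4.17 and 2.78 FPKM in the Control libraries, 1.95 and 1.42 in those of Model and 1.63 and 1.60 in those of MUS, with Prg2 and Epx at 0 in all libraries. The other neutrophil gene tested, Mmp8, was at 6.62 and 3.48 FPKM in Control and 2.63 to 4.69 FPKM in stimulated libraries. S100a8 and the neutrophil sum it carries moved in the direction of the 6 upregulated members, Mmp8 did not, and the eosinophil sum moved in that of Zfp36l2, and their part in these results was not tested.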

How the data were processed

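FPKM values deposited by the authors cover 54532 genes and 6 libraries (Control, Model and MUS, 2 each). The paper's methods name RSEM for FPKM and DESeq2 for DEGs, whereas the submitters' processing notes name HISAT2, featureCounts 1.5.0-p3 and GRCm39. Positions in the table are those of GRCm38: 98.3% of the 54409 identifiers shared with GENCODE M21, and all 10 members, had identical starts and ends there. Multiplied by gene length, 100% of the FPKM values of every library fell on whole steps (tolerance 0.1 of a step), which gave the fragments behind each value. The per-million scale behind the deposited FPKM was 1.45 and 1.34 times the fragment total in Control and 0.909 to 0.998 times in the other libraries, and why it differed is not given in the sources used here. The library protocol does not keep strand. Precision read from fragment numbers covers counting error only. All columns of values were mapped to samples, and 0 had no sample.

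limma 3.58.1 (R 4.3.3; lmFit, contrasts.fit, eBayes with trend) was run on log2(FPKM + 1) for 9794 genes whose mean reached 1 FPKM, in a single 3-group model of the 6 libraries, leaving 3 residual and 4.04 prior degrees of freedom. Fold changes on this scale understate those of low genes. p-values were two-sided and Benjamini-Hochberg adjusted over all genes tested. As the unit is FPKM, the fragments entered only 2 alternatives, voom and scaling to fragment totals. The fit was tested on simulated data. Tables and figures were made with Python 3.11.15, pandas 2.3.3, NumPy 2.4.6 and Matplotlib 3.10.9.

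The labels give the replicate number as the batch. Differences between replicates 1 and 2 correlated across genes at 0.12 between Control and Model, 0.14 between Model and MUS and -0.09 between Control and MUS, and a replicate block was fitted as an alternative. Members, lists and tests were chosen with earlier results of these data known. All members are named, and of each other list the 3 DEGs with the largest increase and the 3 with the largest decrease in a comparison, and for the most abundant member of each member group the 3 genes with the highest r. Protein sequences of the TTP family were not used here. A few items that these rules name are not reported here.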

Additional observations from a re-analysis of the deposited data

How the results depend on the processing

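Over 159 combinations of gene and alternative, the members kept direction and call in 131 in Model vs. Control, lost the call in 25, gained it in 2 and changed sign in 1. The same numbers were 138, 17, 2 and 2 in MUS vs. Control and 150, 0, 0 and 9 in MUS vs. Model. Irak3, Zc3h12c and Zfp36l1 were not called with all libraries and so had no call to lose. All losses in Model vs. Control and MUS vs. Control fell on the other members. In MUS vs. Model no member had a call to lose. With the replicate block, 7 members were called in Model vs. Control, 0 in MUS vs. Model and 7 in MUS vs. Control, and the block changed no other call of a member. It gave 4 DEGs in MUS vs. Model, where a pseudocount of 0.1 gave 1, a fit of only these groups 7 and leaving out a library 0 to 31, the highest without Model replicate 2. DEGs in Model vs. Control were 1475 and became 2280 with fragment-total scaling (647 higher, 1633 lower, against 930 and 545), 2791 with voom (683 and 2108), 260 with no filter on low values, which tested 30192 genes, 797 with only the groups compared and 692 to 2077 when a library was left out. In MUS vs. Control 1980 DEGs (1107 higher, 873 lower) became 2787 with fragment-total scaling (743 and 2044), 456 with no filter, 3169 with voom (755 and 2414) and 184 to 2398 when a library was left out. Quantile normalization called 707 higher and 715 lower in Model vs. Control and 885 and 1102 in MUS vs. Control, and Tnip1 was lost in both (limma, adjusted p = 0.0682 and 0.0620). Members called were 1 (Zc3h12a) and 2 with no filter in Model vs. Control and MUS vs. Control, and 3 to 9 and 1 to 9 when a library was left out. Zfp36l1 changed sign with fragment-total scaling in MUS vs. Control (-0.034) and, when a library was left out, ranged from -0.20 to 1.40 in Model vs. Control and from -0.43 to 1.18 in MUS vs. Control. In MUS vs. Model, leaving out a library moved Tnip3 from -0.072 to 0.31, Irak3 from -0.095 to 0.31, Zc3h12a from -0.067 to 0.18, Zc3h12c from -0.30 to 0.18 and Zfp36l1 from -0.54 to 0.10. Zfp36l1 was not tested with a mean FPKM of at least 5. Where the shift of all genes or the number tested does not show it, the cause was not tested. Depth limits Zfp36l1 most, with 87 fragments in its lowest library.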
